A study of Mus musculus with 4 samples.

Results

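Macrophages that carried transcripts of Alox15, a lipoxygenase that oxygenates polyunsaturated fatty acids, and Prg4, the lubricant glycoprotein lubricin, were examined among single cells of mouse ascites. A member was a barcode with 1000 to 4800 genes detected, at most 15% mitochondrial transcripts and at least 3 transcripts (unique molecular identifiers, UMIs) of C1qa, C1qb, C1qc, Csf1r and Adgre1 together. It also had no UMI of Cd79a or Cd3e, fewer than 2 of Nos2, fewer than 3 of Lyve1, Folr2 and Ccl8 together, fewer than 2 of Mki67 and Top2a together, and at least 3 of Alox15 and Prg4 together. This gave 868 members of 37844 barcodes within the gene and mitochondrial limits. They are called resident-type macrophages here, and the 8933 barcodes that met every condition except the last are called the other macrophages. The members were chosen by their Alox15 and Prg4 UMIs, so the levels of both genes and every contrast of members with other cells are given as description, without a test.

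The ascites came from female FVB mice 6 weeks after intraperitoneal injection of Br-Luc cells, a luciferase-tagged mouse ovarian cancer line with the genotype p53-/-; brca1-/-; myc; Akt-myr. The groups siCont and siFXR1-LNA received a control siRNA or an siRNA against Fxr1, both with locked nucleic acids (LNA) per the study's methods and given intraperitoneally in a polymer carrier, so all animals bore tumors and all were injected. Each group had 2 libraries, and each library pooled the ascites of 3 mice after lysis of red cells, so a library and not a mouse or a cell is the replicate. The authors left a library of the siFXR1-LNA group out of their own work for its fewer reads and cells. Of the 2, siFXR1-LNA replicate 2 had fewer barcodes (17309 against 54665) and fewer UMIs (78179267 against 113606837). The labels do not say which library was left out, so both enter every value of that group here. Where 4 values are given in a row they are siCont replicates 1 and 2 and then siFXR1-LNA replicates 1 and 2, and CPM (UMIs of a gene per 1000000 UMIs of the cells summed in a library) is the unit of level.

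Large macrophages that live in the peritoneal cavity are known for a program of their own. They take up dying cells, make complement and clotting proteins, handle lipids and express little MHC class II, while macrophages that arrive from blood monocytes carry Ly6c2, Ccr2 and more MHC class II at first. Gata6 is the transcription factor best known for the resident program, and Timd4, a receptor for phosphatidylserine on dying cells, marks long-lived members.

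Fxr1, the gene targeted by the siRNA (chromosome 3, 34019943 to 34070322, GRCm38), was measured first. Resident-type macrophages held 65.6, 63.8, 66.9 and 80.9 CPM. The level was thus not lower under the siFXR1-LNA label, with a log2 fold change of 0.20 (SE 0.22, adjusted p = 0.912, edgeR quasi-likelihood test with Benjamini-Hochberg adjustment). The other macrophages held 66.4, 57.4, 83.9 and 77.5 CPM. Since the target was not lower in these cells, groups are named below by their library labels. The paper reports lower Fxr1 in epithelial cells of the siFXR1-LNA group, which were not examined here. Fmr1 (26.5, 29.5, 27.2 and 32.8 CPM) and Fxr2 (17.5, 18.5, 23.5 and 16.8 CPM), its close relatives, had no call either.

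The members numbered 298 and 179 in the libraries labelled siCont and 238 and 153 in those labelled siFXR1-LNA, with medians of 5109 and 8094 and of 5468 and 8878 UMIs per cell. No member barcode was shared between libraries, and 83 to 191 barcodes within the limits were shared by pairs of libraries. B cells, which should lack these transcripts, gave a guide to the free RNA in droplets. They were chosen to have no UMI of the macrophage genes of the definition. That choice favors droplets with little free macrophage RNA, so these B cells can understate what free RNA left in the members. Among them 6 of 557, 26 of 762, 1 of 59 and 2 of 60 had any Alox15 or Prg4 UMI, and 0, 1, 0 and 0 reached 3. At medians of 3238, 4092, 2953 and 2616.5 UMIs the B cells were shallower than the members. The counts of 0 allow shares of up to 0.539%, 5.08% and 5.00% of B cells in siCont replicate 1 and siFXR1-LNA replicates 1 and 2. Hemoglobin genes took 7.83% and 5.27% of the members' UMIs under the siCont label and 3.10% and 1.14% under the siFXR1-LNA label. The 6 neutrophil markers summed to 135 to 248 CPM in the members under the siCont label and to 510.2 to 1473 CPM under the siFXR1-LNA label. In B cells they summed to 78.8 to 733 and 1766 to 3393 CPM. The other macrophages held more than the members, with 225 to 648 and 2783 to 6545 CPM. The 5 mast cell markers went the other way in the members, from 224 to 608 CPM down to 38.2 to 43.4 CPM. In B cells they went from 403 to 879 CPM down to 48.8 to 88.6 CPM. Summed markers of B cells reached 8.40 to 27.1 CPM, those of T cells 3.05 to 17.5 CPM, those of platelets 270.4 to 1501 CPM and those of monocytes 201 to 3241 CPM in the members. The 59 and 60 B cells under the siFXR1-LNA label held 184511 and 203275 UMIs in all, so their CPM values are coarse. The part of these transcripts in the group values below was not tested.

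The label of the population was checked against its markers. C4b, complement component C4, stood at 1013 and 1135 CPM in the members under the siCont label and 718 and 567 CPM under the siFXR1-LNA label, and at 107, 64.1, 54.4 and 64.1 CPM in the other macrophages. F5, coagulation factor V, stood at 125, 306, 140.4 and 58.8 CPM, against 4.13, 7.08, 4.71 and 6.03 CPM. Selp, P-selectin, which is best known from platelets and endothelium, stood at 102, 197, 83.8 and 87 CPM, against 1.84, 1.74, 4 and 3.27 CPM. The lowest member value of each of these genes lay above the highest value of the other macrophages. Apoe, the lipoprotein component, was abundant in both, at 30025, 22122, 19691 and 39194 CPM in the members and 8538, 5059, 3269.8 and 7492 CPM in the other macrophages. F5 had a UMI in 32.9%, 63.1%, 40.3% and 30.1% of the members, in 1.72% to 3.95% of the other macrophages and in 0.18, 1.71, 1.69 and 0% of B cells. These 4 markers stood higher in the members in each library, but they were given with the population and chosen with earlier results of these data known, so they are no independent support for its label. Alox15 itself had 1168, 2481, 1271 and 853 CPM and Prg4 1349, 2935, 1615 and 611 CPM in the members.

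Gata6 did not separate the populations in every library. It stood at 37.9, 50.8, 72.8 and 43.5 CPM in the members and at 44.9, 7.2, 49.8 and 35.3 CPM in the other macrophages. The ratio of members to other macrophages was 0.844, 7.05, 1.46 and 1.23. B cells held 37.4, 12.3, 27.1 and 29.5 CPM of Gata6. The members of siCont replicate 1 were at that level, so Gata6 does not bear out the label there. Under the siFXR1-LNA label the members were only 1.46 and 1.23 times the other macrophages. A wide separation was seen in siCont replicate 2 alone. Timd4 stood at 188 CPM in the members of siCont replicate 1 and at 26.8, 43.4 and 36.6 CPM in the other 3 libraries. The library of siCont replicate 1 was thus alone in a high Timd4 level.

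Of 32 genes listed for the resident identity, 18 were at least 2 times higher in the members in each of the 4 libraries and none was lower by that much. Among all 8797 genes with at least 10 CPM in either class, 1.78% were higher and 1.16% lower by that rule. The list's median log2 ratio of CPM + 1 was 2.28, and the median over all these genes was -0.000922. The list had been chosen with the program in view, so nothing is read from this count. The genes that stood furthest above the other macrophages were mostly secreted or surface proteins. Serpinb2, an inhibitor of plasminogen activators, stood at 123, 171, 55.9 and 77.1 CPM in the members and at 1.05, 1.74, 1.51 and 1.84 CPM in the other macrophages. Ltbp1, which binds latent TGF-beta, stood at 171, 246, 114 and 59.5 CPM, against 2.37, 1.74, 4.17 and 2.75 CPM. Vsig4, a complement receptor of resident macrophages, stood at 185, 276, 37.5 and 162 CPM, against 17.8, 10.4, 2.49 and 8.09 CPM. These genes were near 0 in B cells as well, with at most 2.49 CPM of any of the 3.

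**Figure D1:**
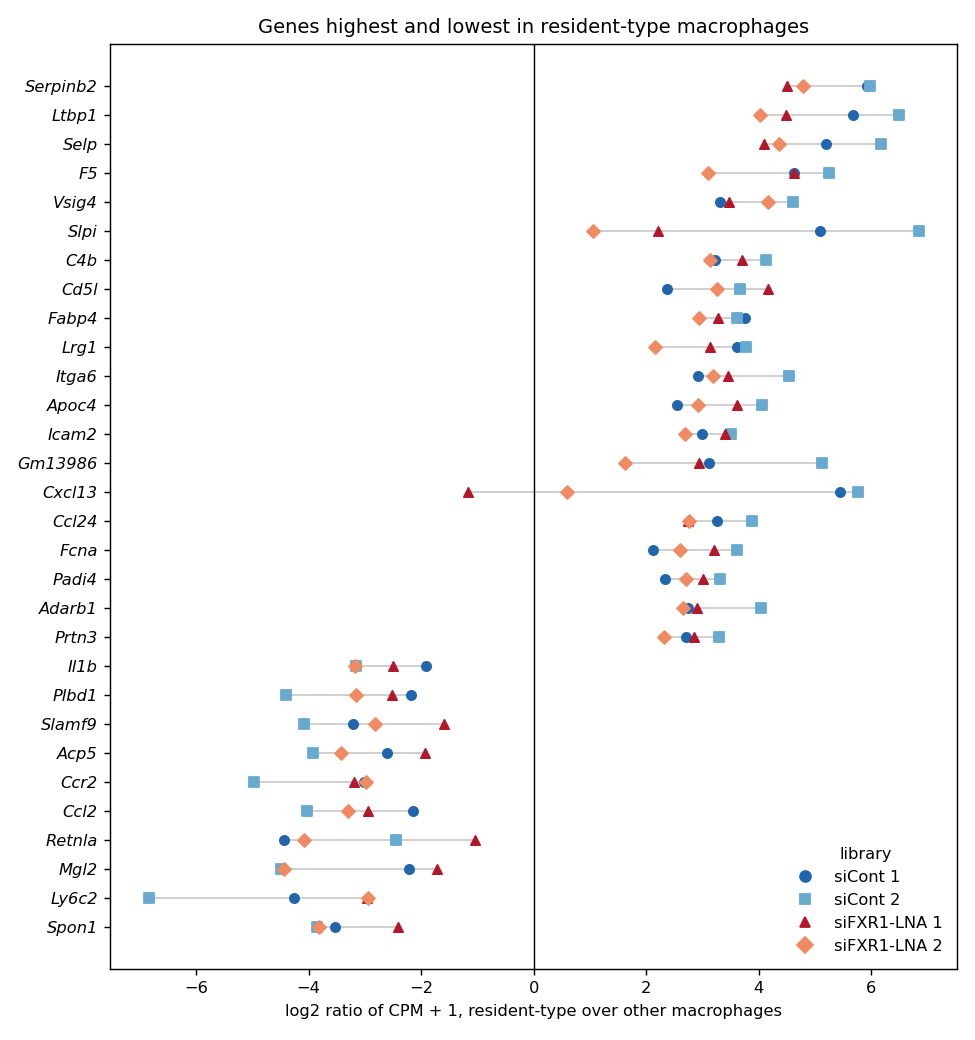
Log2 ratio of CPM + 1 in resident-type over other macrophages (x axis) for the 20 genes with the highest and the 10 with the lowest median ratio (y axis), with 1 point per library. Serpinb2, Ltbp1 and Selp lie furthest to the right, Spon1 and Ly6c2 furthest to the left, and Slpi and Cxcl13 spread widely between libraries.

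The rest of the 20 highest genes covered adhesion, lipid binding, granule proteins and chemokines. Itga6, the integrin alpha 6 subunit, was 7.66, 23.9, 11.1 and 9.25 times higher in the members, and Icam2, an adhesion ligand, 8.36, 11.9, 13 and 7.14 times. Fabp4, a fatty acid binding protein, was 15.4, 13.3, 10.2 and 8.15 times higher, and Cd5l, a secreted scavenger protein, 5.18, 12.8, 18.5 and 9.82 times. Fcna, ficolin A of the lectin pathway of complement, was 4.33 to 12.3 times and Ccl24, an eosinophil attractant, 6.75 to 15.2 times higher. Prtn3, proteinase 3, and Padi4, a peptidylarginine deiminase, are best known from granulocytes, and here they stood at 568, 684, 618 and 536 CPM and at 658, 667, 201 and 418 CPM in the members. The B cells of the same libraries had 9.97, 3.44, 27.1 and 29.5 CPM of Prtn3. The set was completed by Lrg1, Apoc4, Adarb1 and the unnamed gene Gm13986, with Slpi and Cxcl13 described below.

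The 10 genes that stood lowest in the members against the other macrophages were Spon1, Ly6c2, Mgl2, Retnla, Ccl2, Ccr2, Acp5, Slamf9, Plbd1 and Il1b. Ly6c2, a marker of classical monocytes, stood at 22.3, 9.61, 71.3 and 58.8 CPM in the members and 448, 1212, 559.8 and 457 CPM in the other macrophages. B cells held 145, 156, 54.2 and 44.3 CPM, so the members were below B cells under the siCont label and slightly above them under the siFXR1-LNA label. Ccr2, the receptor that draws monocytes from blood, stood at 40.3, 16.5, 13.2 and 20.6 CPM, against 334, 549.8, 129 and 169 CPM. Its ligand gene Ccl2 stood at 15.7, 8.24, 16.2 and 16 CPM in the members, against 72.8, 150.2, 132 and 167 CPM. Il1b, the interleukin 1 beta gene, stood at 10.2, 7.55, 21.3 and 29.8 CPM, against 41.3, 75.5, 126 and 276 CPM. These 4 genes were lower in the members in all 4 libraries. The summed markers of monocytes, which include Chil3, were not, since in siFXR1-LNA replicate 1 they reached 3241 CPM in the members and 1835 CPM in the other macrophages.

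The complement and coagulation list held 8 genes of 22 with enough signal that were at least 2 times higher in the members in each library. Among them were C4b, Cfp, Vsig4, F5, F7, Serpinb2 and Selp, and only Itgax, an integrin of dendritic cells and recruited macrophages, was lower. Cfp, properdin, which stabilizes the alternative pathway convertase, stood at 818, 1114, 634 and 802 CPM, against 319, 382, 284 and 390.1 CPM. F7, coagulation factor VII, stood at 67.4, 167, 101 and 88.5 CPM, against 10.3, 9.44, 36.9 and 26.3 CPM. F10, factor X, stood at 211, 321, 423 and 295 CPM, against 44.5, 44, 159.7 and 159 CPM. Genes for 3 clotting factors and for properdin thus stood higher in the members in each library, with F10 under 2 times in siFXR1-LNA replicate 2.

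In the lipid handling list 4 of 20 genes met the rule of 2 times in each library, namely Apoe, Apoc2, Fabp4 and Cd5l, and none was lower by it. Apoc2, the cofactor of lipoprotein lipase, stood at 945, 809.9, 1143 and 1054 CPM in the members and 295, 248, 216 and 255 CPM in the other macrophages. Among 12 enzymes of lipid mediators beside Alox15, Alox5 and Ptgs1 met the rule. Alox5, the lipoxygenase that starts leukotriene synthesis, stood at 123, 188, 100 and 105 CPM, against 44.8, 34.1, 22.2 and 36 CPM. Ptgs1, constitutive cyclooxygenase, stood at 238, 308, 152 and 218 CPM, against 92.5, 79, 41 and 50.6 CPM. Ptgs2, the inducible cyclooxygenase, had 0, 0, 1 and 2 UMIs in the members of the 4 libraries. Of 13 genes for uptake of dying cells and scavenging, Timd4 and Pros1, the bridging protein S, met the rule. Pros1 stood at 190.3, 176, 87.5 and 111 CPM, against 55.5, 51, 13.7 and 25.3 CPM. Mertk, the receptor for protein S, was 1.97 to 3.33 times higher, at 197, 337, 301 and 343 CPM.

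MHC class II was low in the members against the other macrophages of the libraries labelled siCont. Cd74, the invariant chain, stood at 4231 and 913 CPM in the members and 11348 and 14438 CPM in the other macrophages under the siCont label, and at 1809 and 3705 and 2343 and 4988 CPM under the siFXR1-LNA label. The ratio was 0.373 and 0.0632 under the first label and 0.772 and 0.743 under the second. H2-Aa, an alpha chain, had ratios of 0.296 and 0.0574 and of 0.674 and 0.519. No gene of 13 in the antigen presentation list was 2 times higher or lower in each library, and the list's median log2 ratio was -0.93. Among 23 cytokine and chemokine genes 7 were lower by the rule (Il1b, Tnf, Ccl2, Ccl3, Ccl4, Ccl7 and Cxcl10) and 1, Ccl24, was higher. In the interferon-stimulated list Ifit1 alone of 17 was lower by it, and the median log2 ratio was -0.77. The remaining lists showed little contrast, since no gene of hypoxia and glycolysis (16), iron and heme (11), or NRF2 and glutathione (9) met the rule and Hspa1a alone of 14 immediate early and heat shock genes was lower.

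The members were also set beside macrophages with at least 2 Nos2 UMIs (2493 cells, all in the libraries labelled siFXR1-LNA) and macrophages with at least 3 UMIs of Lyve1, Folr2 and Ccl8 (2171 cells). Fcna and Apoe were shared with the Lyve1 macrophages, which held 2695, 1369, 864 and 1226 CPM of Fcna and 19278, 11976, 11764 and 23636 CPM of Apoe. F5, Selp and Ltbp1 were not, with 9.57, 18.4, 21.6 and 8.97 CPM of F5, 2.93, 18, 23.3 and 6.46 CPM of Selp and at most 4.75 CPM of Ltbp1. C4b lay between, at 384, 298, 186 and 229.6 CPM in the Lyve1 macrophages. These had no limit on Alox15 and Prg4, and 94 of 1286, 88 of 490, 8 of 95 and 25 of 300 held at least 3 of these UMIs. The part of such cells in the levels of the Lyve1 macrophages was not tested. The Nos2 macrophages held 18.8 and 19.9 CPM of C4b, 2 and 1.42 CPM of F5 and 25.5 and 28.7 CPM of Fcna, all below the members of the same libraries. For Saa3, an acute-phase protein gene, the order was the other way, with 78724 and 77653 CPM in the Nos2 macrophages and 18252 and 16475 CPM in the members.

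The members differed among themselves in how many Alox15 and Prg4 UMIs they carried. The median was 8.5 and 27 UMIs under the siCont label and 11 and 6 under the siFXR1-LNA label, and the highest cell had 222. Cells with at least 10 were 45.6% and 81.6% of the members under the first label and 55.0% and 38.6% under the second, so the labels overlapped. Both genes had a UMI in 67.4% and 83.2% and in 84.9% and 52.9% of the members. Alox15 without Prg4 was seen in 78 and 4 and in 13 and 58 members, and Prg4 without Alox15 in 19 and 26 and in 23 and 14. The median depths given above do not follow the order of these counts.

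Other genes followed the Alox15 and Prg4 count. In cells with at least 10 of these UMIs, F5 stood at 242 and 343 CPM under the siCont label and 202 and 108 CPM under the siFXR1-LNA label. In cells with 4 to 9 it stood at 31.9 and 92.5 CPM and at 50.9 and 28.9 CPM. Just inside the threshold, at 3 UMIs, it stood at 20.7 and 78.2 CPM and at 48.8 and 4.97 CPM, and just outside, at 2 UMIs, at 30.7 and 14.9 CPM and at 37.9 and 14.6 CPM. The cells at 3 UMIs (36, 5, 19 and 29) and at 2 UMIs (51, 11, 42 and 39) were few, and on F5 they overlapped. Over the 4 libraries Ltbp1 went from 20.9 CPM at 2 UMIs and 7.77 CPM at 3 to 242 CPM at 10 or more, and Selp from 23.4 and 27.2 to 175 CPM. Apoe did not follow, with 22880 CPM at 2 UMIs, 28525 at 3, 29568 at 4 to 9 and 26476 at 10 or more. Cd74 went the other way, from 4997 and 4605 CPM to 3937 and 1714 CPM. The threshold thus cuts a gradation in which F5, Selp, Ltbp1 and Serpinb2 were concentrated in the cells with the most Alox15 and Prg4, while Apoe, Fcna and C4b were already present below it. Members with Alox15 alone held 20.02 CPM of F5 and 8.58 CPM of Ltbp1 over the 4 libraries, and members with both genes held 202 and 204 CPM. Members with Prg4 alone held 98.3 CPM of F5 (64.9, 172, 60.7 and 44.6 CPM by library) and 20.02 CPM of Ltbp1. Of the cells with Alox15 alone, 78 came from siCont replicate 1 and 58 from siFXR1-LNA replicate 2, against 4 and 13 from the other libraries.

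**Figure D2:**
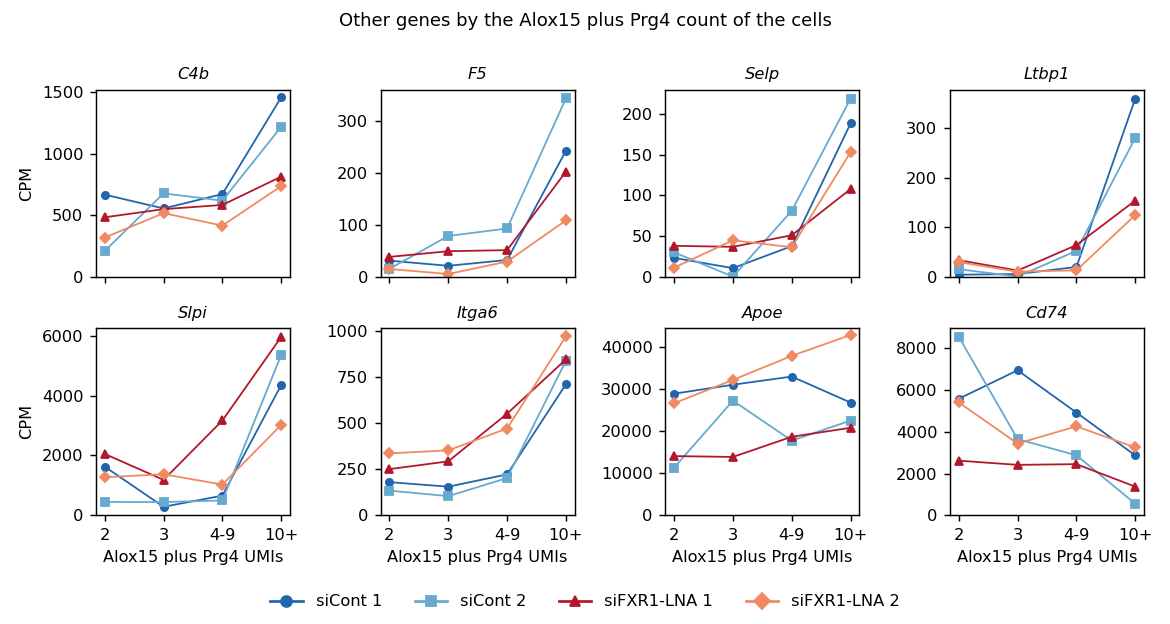
CPM of 8 genes (y axis, linear) in macrophages with 2, 3, 4 to 9 and 10 or more Alox15 plus Prg4 UMIs (x axis), with a line per library; the bin of 2 lies outside the definition. C4b, F5, Selp, Ltbp1, Slpi and Itga6 are highest in the last bin in each library, Apoe shows no common order, and Cd74 is lowest there in each library.

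Some genes varied between the 2 libraries of a label, among them Marco and Thbs1 of the resident identity list. Marco, a scavenger receptor, stood at 624 CPM in the members of siCont replicate 1 and at 159, 221 and 228 CPM in siCont replicate 2 and siFXR1-LNA replicates 1 and 2. Thbs1, thrombospondin 1, stood at 335, 1734, 1959 and 587 CPM, so siCont replicate 2 and siFXR1-LNA replicate 1 were high and the other 2 low. F13a1, a subunit of coagulation factor XIII, stood at 213, 851, 393 and 1134 CPM, and Cd36, a fatty acid and scavenger receptor, at 186, 482, 92.6 and 421 CPM. Chil3, a chitinase-like protein of alternatively activated macrophages, stood at 39.1 and 1942 CPM under the siCont label and 3110.2 and 1353 CPM under the siFXR1-LNA label, and at 0.499, 7.17, 135 and 123 CPM in B cells. For none of these genes did the labels separate the libraries.

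Resident-type macrophages made up 10.7% (95% exact Clopper-Pearson interval 9.56 to 11.9) and 14.4% (12.5 to 16.5) of the members and other macrophages together under the siCont label. Under the siFXR1-LNA label they made up 9.25% (8.15 to 10.4) and 4.79% (4.08 to 5.59). The mean was 12.5% ± 2.63 (SD, n = 2 libraries) against 7.02% ± 3.15, a difference of -5.52 percentage points. The libraries did not overlap, yet a two-sided exact permutation test of 2 against 2 libraries cannot give less than p = 0.333, which it gave. Of all barcodes within the limits the members were 2.82% and 2.79% under the siCont label and 2.10% and 1.61% under the siFXR1-LNA label (exact permutation p = 0.333). After each cell was thinned to 2000 UMIs the shares among macrophages were 6.43% and 13.9% against 7.21% and 2.30%, and with barcodes from 100 genes upward they were 4.95% and 10.6% against 6.38% and 3.67%, so under both settings the labels overlapped. Every UMI condition was applied again to the thinned counts, so the upper limits admitted cells that were left out before. Macrophages in siCont replicate 1 then numbered 3299 against 2791 without thinning, and members in siCont replicate 2 numbered 217 against 179. The thinned shares thus describe another set of cells and not the same cells at equal depth. The intervals cover counting error only. The count of members came from RNA, so fewer cells of this type cannot be told apart from cells with less Alox15 and Prg4 RNA.

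**Figure D3:**
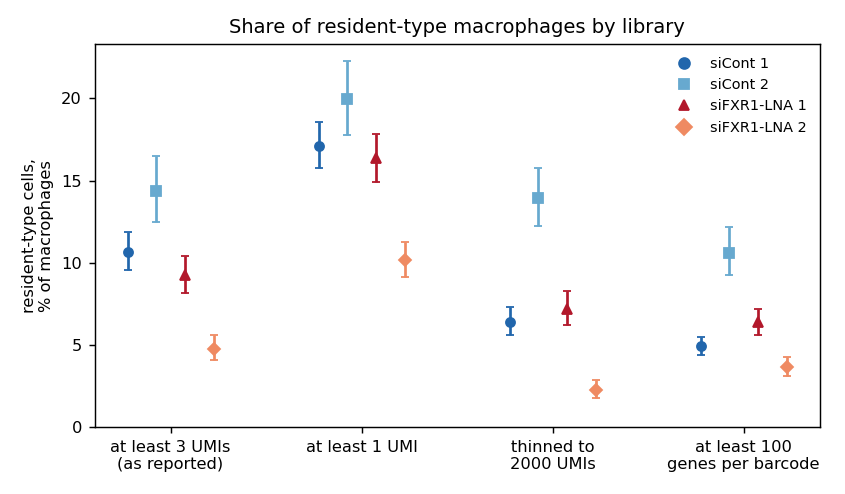
Resident-type cells as a percentage of macrophages (y axis) in each library under 4 settings (x axis), with points for the share and bars for the 95% exact binomial interval. Under the definition used and at 1 UMI both siCont libraries lie above both siFXR1-LNA libraries, and after thinning or with shallower barcodes siCont replicate 1 lies below siFXR1-LNA replicate 1.

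The comparison of the labels within the members asked which genes moved with the siRNA group in this population. Of 9251 genes tested outside the gating genes, 1 passed an adjusted p of 0.05 in edgeR's quasi-likelihood test, a background of 0.0108%, and at an unadjusted p under 0.05 there were 385 higher (4.16%) and 297 lower (3.21%) genes. The median log2 fold change over all genes was 0.01. The gene was Lcn2, lipocalin 2, a secreted iron-siderophore binder of the acute phase (chromosome 2, 32384633 to 32388252, GRCm38). It stood at 3.01 and 11 CPM in the members under the siCont label and 584 and 707 CPM under the siFXR1-LNA label, with a log2 fold change of 6.55 (SE 0.50, adjusted p = 0.0409, edgeR). B cells, which were shallower, held 3.49, 9.75, 743 and 841 CPM, a similar level. The part of free RNA in the level of the members was not tested, so no change of their own expression is read from it. The other macrophages held 8.25, 23, 2375 and 3326 CPM. With each library left out in turn the log2 fold change of Lcn2 ranged from 5.87 (without siCont replicate 1) to 7.70 (without siCont replicate 2). DESeq2 called 31 genes higher and 17 lower, and the fit with the replicate number as a block called 45 and 15. The number of calls moved widely with the library left out, and it is not read further, since a label then had a lone library.

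The next genes by p were Gpnmb, Ccl3, Mt2 and Acod1, each at an adjusted p of 0.0948 or, for Mt2, 0.0952 in edgeR, and they are named here after their values were seen. Gpnmb, a transmembrane glycoprotein of lipid-laden and lysosome-rich macrophages, stood at 19.9 and 24.7 CPM under the siCont label and 140.4 and 233 CPM under the siFXR1-LNA label (log2 fold change 3.06, SE 0.31). B cells held at most 4.92 CPM of Gpnmb, below the members of every library. Gpnmb passed the threshold with DESeq2 and without a filter on low counts but not with RLE size factors. Without members that held UMIs of other cell types its log2 fold change was 2.05 (adjusted p = 0.35, edgeR). Ccl3, a chemokine, stood at 3.01, 4.8, 41.2 and 42 CPM in the members and at 37.9 and 14.8 CPM in B cells under the siFXR1-LNA label. Mt2, a metallothionein, stood at 11.4, 6.86, 169 and 95.4 CPM and at 97.6 and 123 CPM in those B cells. Acod1, which makes itaconate, stood at 3.01, 0.686, 52.2 and 43.5 CPM and at 75.9 and 29.5 CPM in those B cells. For Mt2 and Acod1 at least 1 B cell library under that label reached the range of the members, and for Ccl3 neither did. With each library left out in turn, the log2 fold change ranged from 3.95 to 5.96 for Acod1 and from 3.09 to 3.74 for Ccl3. For Mt2 it ranged from 3.32 to 4.27 and for Gpnmb from 2.68 to 3.35.

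Genes were also counted by a simpler rule chosen after the values were seen, with group means at least 2 times apart and no overlap of the libraries. By it 3.12% of the 9251 genes were higher and 1.99% lower under the siFXR1-LNA label. Of 16 interferon-stimulated genes tested, 12 were lower by it and none higher, and all 16 had a negative log2 fold change with a median of -1.39. None passed the adjusted threshold, the lowest adjusted p being 0.379 in edgeR. Of the genes named next, DESeq2 called Isg15, Irf7 and Ifi27l2a lower (adjusted p = 0.04, 0.0493 and 0.00354), as did edgeR without a filter on low counts (0.0208, 0.0264 and 0.0332). Isg15, a ubiquitin-like modifier, stood at 119 and 42.6 CPM and 13.2 and 21.4 CPM in the members (log2 fold change -2.22, SE 0.52). Irf7, the transcription factor that amplifies interferon, stood at 131, 59, 14 and 32.8 CPM (-2.03, SE 0.49). Ifi27l2a stood at 709, 282, 94.8 and 170.2 CPM (-1.91, SE 0.48), and Bst2, tetherin, at 307, 172, 80.1 and 134 CPM (-1.16, SE 0.36). The libraries of the labels did not overlap for these 4 genes. Without siCont replicate 1 the log2 fold changes of Isg15, Irf7 and Ifi27l2a were -1.30, -1.34 and -1.10, and without siFXR1-LNA replicate 2 that of Irf7 was -2.74. B cells had lower values of Isg15, Irf7 and Ifi27l2a under the siFXR1-LNA label as well, and Isg15 stood at 145, 145, 43.4 and 44.3 CPM and Ifi27l2a at 1346, 1739.7, 86.7 and 128 CPM. The members were below the B cells in each library for Isg15. B cells can express these genes themselves, so the part of free RNA in them was not tested.

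The hypoxia and glycolysis list lay in the other direction. Of 16 genes tested, 8 were higher by the simpler rule and none lower, all 16 had a positive log2 fold change, and the median was 1.07. None passed the adjusted threshold, the lowest adjusted p being 0.134 in edgeR. Vegfa, the vascular growth factor, stood at 10.2, 5.49, 162 and 71 CPM in the members and at 12, 3.15, 249 and 192 CPM in B cells. Bnip3, a mitophagy receptor induced by low oxygen, stood at 16.9, 20.6, 221 and 103 CPM in the members and 11, 13.5, 189.7 and 83.6 CPM in B cells. Under the siFXR1-LNA label the members were below the B cells for Vegfa and above them for Bnip3. With each library left out in turn, the log2 fold change of Vegfa ranged from 3.11 to 4.41 and that of Bnip3 from 2.42 to 3.58. Slc2a1, the glucose transporter GLUT1, stood at 19.9, 15.1, 64.7 and 55 CPM (1.78, SE 0.28) and at 34.4, 29.5, 27.1 and 59 CPM in B cells. Its log2 fold change ranged from 1.58 to 1.99 with each library left out in turn.

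**Figure D4:**
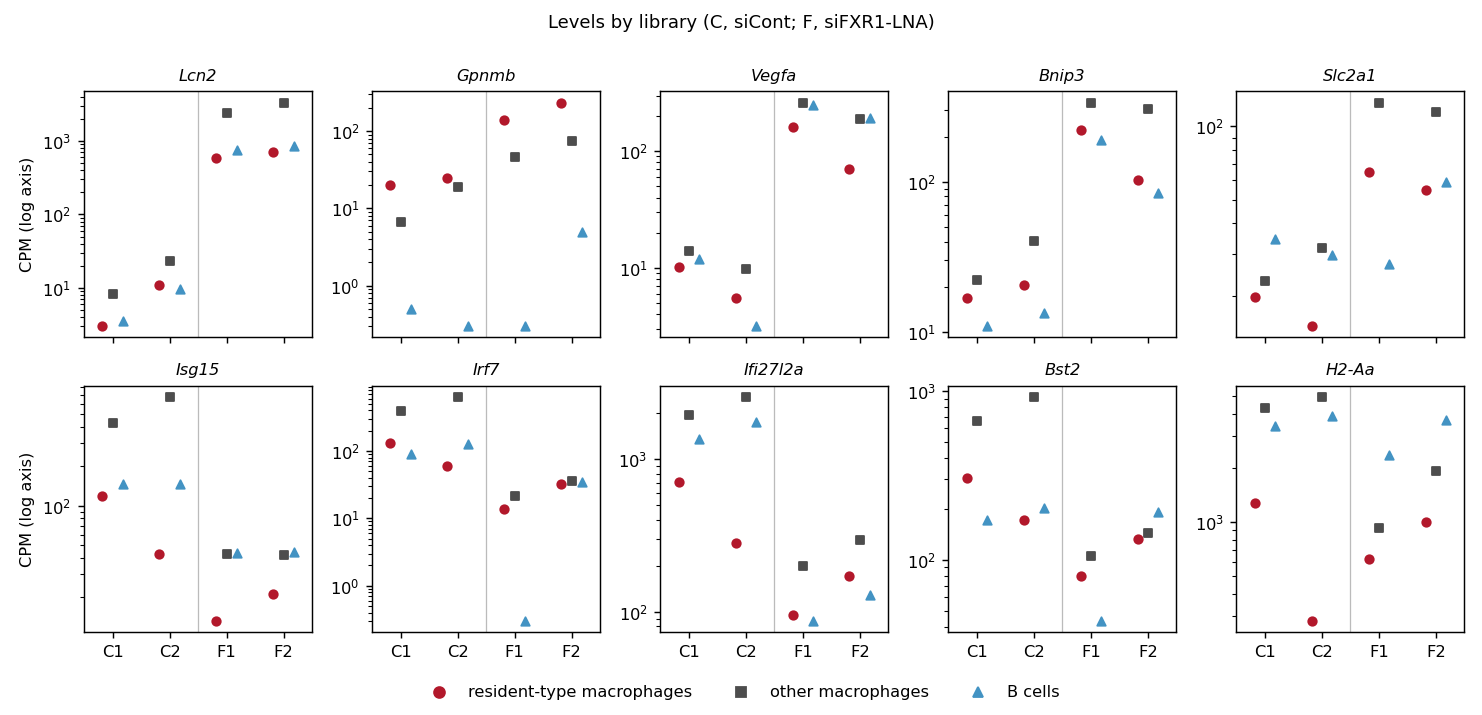
CPM (log y axis) of 10 genes in resident-type macrophages, other macrophages and B cells, by library (C1 and C2, siCont replicates; F1 and F2, siFXR1-LNA replicates); values under 0.3 are drawn at 0.3. Lcn2, Vegfa and Bnip3 reach similar levels in members and B cells under the siFXR1-LNA label, Gpnmb does not, and Isg15, Irf7 and Ifi27l2a are lower under that label in all 3 cell classes.

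The identity genes showed smaller differences. Of 32 resident identity genes 1 was higher and 6 lower by the simpler rule, with a median log2 fold change of -0.63. None was past the adjusted threshold, the lowest adjusted p being 0.258. Icam2 stood at 124, 204, 50.7 and 55.7 CPM (-1.61, SE 0.30), C4b fell short of a call with -0.72 (SE 0.28), F5 with -1.08 (SE 0.54) and Selp with -0.79 (SE 0.33). F5 overlapped between the labels, C4b and Selp did not. Without siCont replicate 1 the log2 fold changes of Icam2, F5 and Ltc4s were -1.93, -1.60 and -1.55. Without siCont replicate 2 the log2 fold change of F5 was -0.32, and without siFXR1-LNA replicate 1 it was -1.91. DESeq2 called Icam2, Ltc4s and Klf2, described next, lower (adjusted p = 0.0212, 0.000436 and 0.0379). Apoe overlapped, with a log2 fold change of 0.17 (SE 0.49). Ltc4s, leukotriene C4 synthase, stood at 995, 1215, 402 and 426 CPM (-1.40, SE 0.26) and was the 1 gene of 10 tested lipid mediator enzymes that was lower by the simpler rule. Klf2, a transcription factor of quiescent macrophages, stood at 724, 949, 389 and 372 CPM (-1.12, SE 0.26) and was the 1 of 12 immediate early and heat shock genes. Of 20 cytokine genes 7 were higher and 1 lower, of 20 lipid handling genes 2 and 1, of 19 complement and coagulation genes 1 and 2, of 11 iron and heme genes 3 and 0, and of 9 NRF2 and glutathione genes 1 and 0. None of 11 antigen presentation genes and none of 13 scavenger genes met it. The 3 Fragile X family genes did not meet it.

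Further genes were named because they had the most UMIs of their list in the members. Fth1 and Ftl1, the ferritin chains, stood at 11001, 6294, 16339.9 and 15432 and at 2050.2, 2622, 3591 and 2657 CPM in the members. Hmox1, heme oxygenase 1, stood at 1059, 414, 1238 and 1129 CPM, against 587, 408, 1734 and 1902 CPM in the other macrophages. Alox5ap, the activating protein of Alox5, stood at 1116, 1638, 1137 and 1047 CPM, and Tbxas1, thromboxane synthase, at 608, 594, 472 and 537 CPM. Neither separated the labels by the rule of 2 times. Npc2, which moves cholesterol out of lysosomes, stood at 773, 775, 696 and 815 CPM, and Msr1, scavenger receptor A, at 555, 657, 406 and 739.7 CPM. Among chemokines Ccl6 stood at 2486, 5382, 2257 and 2665 CPM and Ccl9 at 281, 511, 275 and 311 CPM, both highest in siCont replicate 2. Ctss, the protease cathepsin S, stood at 1726, 1534, 2101 and 2219.8 CPM, and Ifitm3, an interferon-induced membrane protein, at 2723, 1856, 948 and 1728 CPM. Gapdh, Eno1 and Ldha, enzymes of glycolysis, stood at 2893, 2566, 3698 and 3604, at 1007, 1098, 1106 and 1107 and at 560.0, 568, 796 and 843 CPM. Prdx1, a peroxiredoxin, stood at 897, 567, 632 and 869 CPM.

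The members were then compared with the other macrophages of the same libraries for how far the labels lay apart. This interaction was tested with the library as a block over 12587 genes. It called 45 genes (0.358%), of which 39 (0.31%) had a lower and 6 (0.0477%) a higher log2 difference in the members than in the other macrophages. All 45 had the same direction in every alternative setting that gave a value, those with a library left out included. The counts themselves moved widely with the library left out, and they are not read further, since a label then had a lone library. For 36 of the 39 genes the members already had the higher level in both libraries labelled siCont, and for 24 the other macrophages had the higher level in both libraries labelled siFXR1-LNA. In the members the labels overlapped for 21 of the 39 genes, were higher without overlap for 16 and lower for 2. The 39 genes were picked by their lower difference, and the same shares over all tested genes were not taken. Nothing is therefore read from these counts among the 39. In the other macrophages alone 114 genes (0.846%) were called higher and 66 (0.49%) lower. The other macrophages can hold different cells in the 2 groups, and their composition cannot be told apart here from change within a cell.

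Saa3 stood at 5575 and 9708 CPM in the members and 425 and 143 CPM in the other macrophages under the siCont label (chromosome 7, 46711998 to 46715700, GRCm38). Under the siFXR1-LNA label it stood at 18252 and 16475 CPM and 35134 and 28383 CPM. The members were thus 13.1 and 67.9 times higher under the first label and at 0.519 and 0.58 times the other macrophages under the second. The difference of the log2 fold changes was -5.85 (SE 0.59, adjusted p = 0.00135, edgeR). B cells held 58.3 and 49.9 CPM under the siCont label and 4086 and 5264 CPM under the siFXR1-LNA label. DESeq2 gave an adjusted p of 0.0847 for Saa3.

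Slpi, a secreted inhibitor of neutrophil proteases, stood at 2278 and 4649.5 CPM and 4703 and 1924 CPM in the members, so the labels overlapped (log2 fold change -0.03, SE 0.55). In the other macrophages it stood at 65.8, 39.5, 1021 and 930.4 CPM, and the difference was -4.45 (SE 0.52, adjusted p = 0.00273, edgeR). Cxcl13, the chemokine that draws B cells to the peritoneum, stood at 512 and 216 CPM in the members under the siCont label and 30.9 and 146 CPM under the siFXR1-LNA label, against 10.8, 2.98, 70.6 and 96 CPM in the other macrophages. Its difference of -6.05 (SE 0.47, adjusted p = 0.000234, edgeR) was the lowest of the 45 genes called. It had a UMI in 28.2% and 12.3% of the members under the siCont label and in 5.04% and 9.8% under the siFXR1-LNA label, where 5.08% and 6.67% of B cells had one. The share of members with a Cxcl13 UMI in siFXR1-LNA replicate 1 was close to that of B cells, of which there were 59. The part of free RNA in it was not tested. Thbs1 had a difference of -3.14 (SE 0.48, adjusted p = 0.0221, edgeR). With Marco and Ltbp1 (-2.08, SE 0.36), 6 of 32 resident identity genes were called lower by the interaction and none higher.

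**Figure D5:**
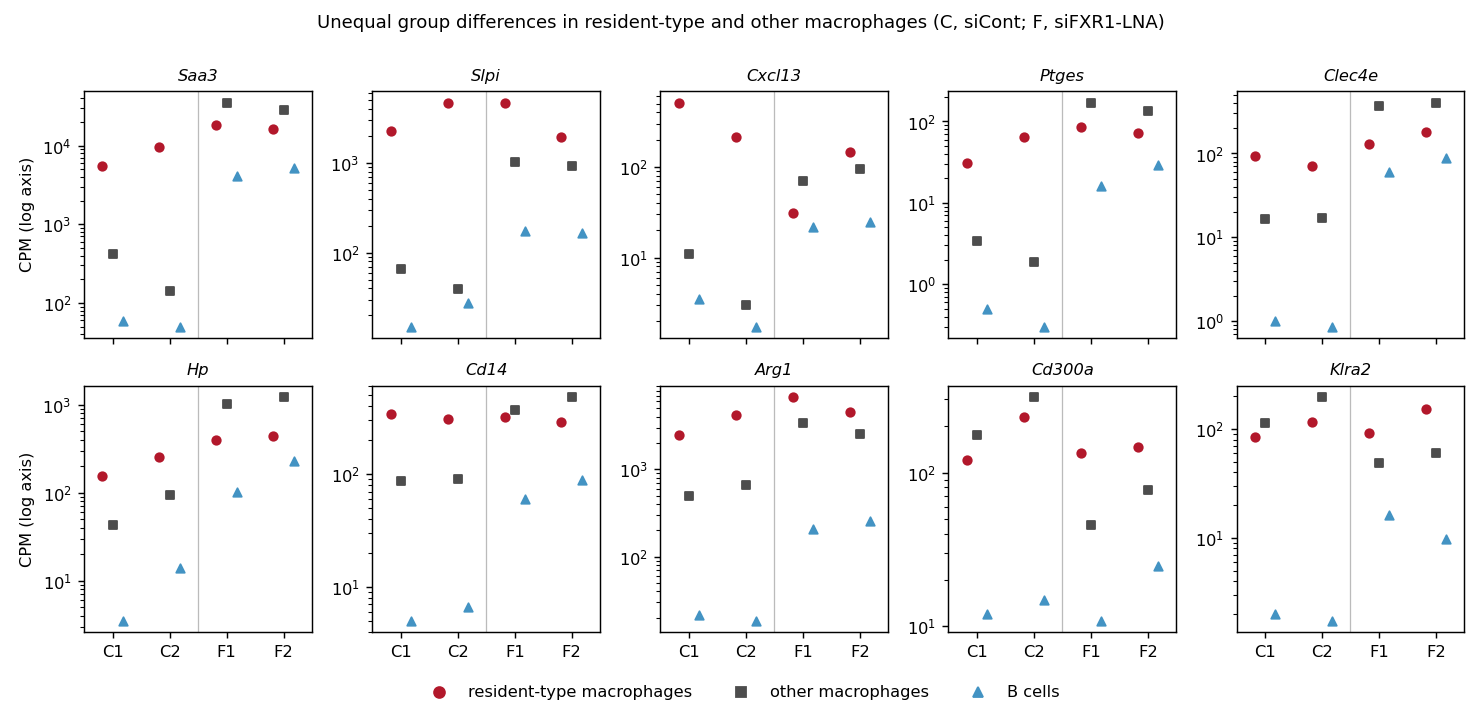
CPM (log y axis) of 10 genes called by the interaction test in resident-type macrophages, other macrophages and B cells, by library (C1 and C2, siCont replicates; F1 and F2, siFXR1-LNA replicates); values under 0.3 are drawn at 0.3. For the first 8 genes the members stand above the other macrophages in both siCont libraries by more than under the siFXR1-LNA label, while for Cd300a and Klra2 they stand below in the siCont libraries and above in the others.

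Other lists contributed receptors, enzymes and metal-binding proteins. Ptges, which makes prostaglandin E2, stood at 30.7, 65.2, 84.5 and 71.8 CPM in the members and 3.42, 1.86, 171 and 134 CPM in the other macrophages, a difference of -5.10 (SE 0.43, adjusted p = 0.000334, edgeR). It and Ptgis, prostacyclin synthase (-1.97, SE 0.31), were the 2 of 13 lipid mediator enzymes called. Of 14 scavenger genes Cd163, the hemoglobin-haptoglobin receptor (-3.45, SE 0.45), and Marco (-2.09, SE 0.23) were called. Of 27 cytokine genes the 4 called were Cxcl13, Cxcl2, a neutrophil attractant (-3.42, SE 0.55), Arg1, arginase (-1.65, SE 0.24), and Nfkbia, the NF-kappa-B inhibitor (-1.64, SE 0.26). Arg1 stood at 2447, 4157, 6781 and 4542 CPM in the members and 491, 668, 3359 and 2548 CPM in the other macrophages, so the members had more in each library. Of 12 iron and heme genes Mt1 (-1.83, SE 0.24) and Mt2 (-2.13, SE 0.37) were called. Of 24 complement and coagulation genes F10 (-1.50, SE 0.27) and Itgam, the complement receptor chain CD11b (-1.30, SE 0.23), were called. All of these were lower in the members than in the other macrophages as differences, and all had adjusted p values under the threshold in edgeR. With a library left out the difference of Nfkbia ranged from -1.99 to -1.17, that of F10 from -1.79 to -1.09 and that of Itgam from -1.27 to -1.05. Mt2 ranged from -2.45 to -1.70 and Ltbp1 from -2.41 to -1.59. DESeq2 did not call Cxcl2 (adjusted p = 0.12), whose difference was -1.93 without siCont replicate 2 and -4.29 without siCont replicate 1. Against other macrophages with no Alox15 or Prg4 UMI the call of Ptgis was lost (0.052, edgeR), as were those of Nfkbia, F10, Itgam, Mt2 and Ltbp1. The differences of Saa3, Ptges, Slpi, Thbs1, Cd163 and Cxcl13 with any 1 library left out lay in ranges of -6.84 to -4.61, -5.96 to -4.15, -5.14 to -3.52, -3.83 to -2.32, -4.31 to -2.69 and -6.95 to -5.33.

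Innate sensing genes outside the lists, named after their values were seen, showed the same layout. Clec4e, the receptor Mincle, stood at 93.3, 70, 129 and 179 CPM in the members and 16.6, 17.1, 368 and 404 CPM in the other macrophages (-3.71, SE 0.27, adjusted p = 0.000234, edgeR). Cd14, the lipopolysaccharide co-receptor, stood at 340.2, 308, 319.8 and 287 CPM in the members, where the labels overlapped, and at 86.3, 90.1, 372 and 484 CPM in the other macrophages (-2.46, SE 0.26, adjusted p = 0.00171, edgeR). Hp, haptoglobin, stood at 155, 253, 403 and 442 CPM and at 42.9, 94, 1020.3 and 1229.8 CPM (-3.14, SE 0.25, adjusted p = 0.000234, edgeR).

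The 6 genes with a higher difference in the members were Cd180, Mndal, Lgals3bp, Cd300a, Klra2 and Iigp1, and they fell outside the lists. Klra2, a lectin-like receptor, stood at 84.9, 116, 91.9 and 153 CPM in the members and 113, 198, 48.3 and 60.2 CPM in the other macrophages (1.64, SE 0.26, adjusted p = 0.025, edgeR). Cd300a, an inhibitory receptor for lipids of dying cells, stood at 120.4, 229.9, 135 and 147 CPM and at 177, 311, 45.6 and 77.3 CPM (1.64, SE 0.26). For both genes the labels overlapped in the members and did not in the other macrophages, which had the lower values under the siFXR1-LNA label. With a library left out the difference of Cd300a ranged from 1.30 to 2.12, that of Lgals3bp from 1.30 to 2.13 and that of Cd180 from 1.40 to 1.82. Mndal ranged from 1.40 to 1.93 and Iigp1 from 2.26 to 3.42. The calls of these 5 genes did not hold in every alternative setting.

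Interferon-stimulated and MHC class II genes leaned the same way without a call. All 17 interferon-stimulated genes in the interaction test had a positive difference, with a median of 1.41, and the antigen presentation list had a median of 1.42 over 13 genes, 11 of them positive, beside a median of -0.06 over all genes. H2-Aa stood at 1278, 283, 623 and 998 CPM in the members, where the labels overlapped, and at 4320.5, 4925, 925 and 1921 CPM in the other macrophages, where they did not. Its difference was 2.06 (SE 0.59, adjusted p = 0.18, edgeR), that of Cd74 was 2.20 (SE 0.63, adjusted p = 0.18) and that of Isg15 was 1.41 (SE 0.63, adjusted p = 0.484). Without siCont replicate 1 the differences of these 3 genes were 3.48, 3.70 and 2.79. Without siCont replicate 2 the differences of H2-Aa, Cd74 and Isg15 were 0.96, 0.99 and 0.51. The resident identity list had a median difference of -0.83, the complement and coagulation list -0.69, and the hypoxia and glycolysis list -0.46 over 17 genes. No gene of the lipid handling, antigen presentation, interferon-stimulated, hypoxia and glycolysis, NRF2 and glutathione, immediate early and heat shock or Fragile X lists was called by the interaction.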

How the data were processed

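The values are raw UMI counts, which the authors deposited as 1 matrix of genes by barcodes for every 10x Genomics 3' library, made with Cell Ranger 7.0.0 on the mouse build mm10 per the file headers and not normalized. The kit version was stated differently by the labels and the methods. Libraries held 17309 to 54665 barcodes and 78179267 to 113606837 UMIs. No authors' cell annotation was used, and doublets were removed only as an alternative (the 5% of cells with the highest Scrublet scores, scanpy 1.11.5).

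Members and gene lists were chosen with earlier results of these data known. Up to 4 genes of a list were named, those past the threshold with the largest change or, where fewer than 2 passed, those with the highest mean CPM, beside Fxr1 and the given markers, and the 20 highest and 10 lowest genes against the other macrophages needed 50 CPM on average. Other genes named were chosen after their values were seen. A gene of the complement and coagulation list is not reported here. The gene symbols came from the files, and coordinates from GENCODE vM21, which held 99.8% of 32285 identifiers. CPM ratios used a pseudocount of 1 CPM on the log2 scale. B cells had at least 2 Cd79a UMIs, at least 1 Ms4a1 UMI and no UMI of the macrophage genes.

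Counts were summed per library and class and tested with edgeR 4.0.16 (R 4.3.3) by its quasi-likelihood test after filterByExpr and TMM scaling, with a threshold of 0.05 on p-values adjusted by Benjamini-Hochberg, without a block within the members and with the library as a block in the interaction. The 15 gating genes were left out of counts of calls. Within the members the p-values measure the spread between pooled libraries. In the interaction they measure how far the difference between the classes of a library varies between pooled libraries. On simulated counts with 200 changed genes among 9262, the first test called 92.5% of them with 10 false calls. The interaction called 60% among 12453 genes with 4 false calls. The simulation used the same dispersion for every gene and the same large size of change, in well expressed genes only. The spread between the real libraries was not modelled, so these shares do not give the power of the tests on the real counts. Shares carry exact Clopper-Pearson intervals and a two-sided exact permutation test. Alternatives were DESeq2 1.42.0, RLE size factors, no filter on low counts, a replicate block, each library left out, thresholds of 1, 5 and 10 Alox15 plus Prg4 UMIs, both genes required, 100 genes per barcode, a mitochondrial limit of 10%, thinning to 2000 UMIs, and removal of doublets or of members with UMIs of other cell types. The threshold of 10 and the removal of hemoglobin genes were added after the data were seen.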

Additional observations from a re-analysis of the deposited data

Results flagged for a closer look

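The results listed here had a log2 difference between the labels that was unequal in resident-type and other macrophages, by a test of the difference itself (quasi-likelihood test of edgeR, p-values adjusted by Benjamini-Hochberg). Each value is the log2 fold change of the members minus that of the other macrophages. Among resident identity genes it was -6.05 for Cxcl13, -5.85 for Saa3, -4.45 for Slpi, -3.14 for Thbs1, -2.09 for Marco and -2.08 for Ltbp1. Among enzymes of lipid mediators it was -5.10 for Ptges and -1.97 for Ptgis. Among receptors and innate sensing genes it was -3.71 for Clec4e, -3.45 for Cd163, -2.46 for Cd14 and -1.30 for Itgam. Among cytokine, metabolic and secreted genes it was -3.42 for Cxcl2, -3.14 for Hp, -2.13 for Mt2, -1.83 for Mt1, -1.65 for Arg1, -1.64 for Nfkbia and -1.50 for F10. It was above 0 for Iigp1 (2.66), Klra2 (1.64), Cd300a (1.64), Lgals3bp (1.58), Mndal (1.53) and Cd180 (1.47). The values of free RNA in B cells and the makeup of the other macrophages moved with the labels, and their part in these differences was not tested.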

How the results depend on the processing

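Within the members, 1 gene was higher and none lower in the edgeR fit. DESeq2 gave 31 higher and 17 lower, no filter on low counts 49 and 35, and the replicate number as a block 45 and 15. The replicate numbers were not shown to pair the libraries (r = 0.142 of deviations over 9262 genes, 2 pairs), so the block is given only as an alternative. With each library left out in turn there were 3 to 137 higher and 0 to 26 lower genes. A threshold of 5 Alox15 plus Prg4 UMIs gave 2 higher, both genes required 3, doublets removed 4, and a threshold of 10 gave 7 higher and 1 lower. Lcn2 was higher under all 16 alternatives and passed under each that kept every library. For the interaction (6 higher and 39 lower), each library left out in turn gave 15 to 579 higher and 37 to 361 lower, no filter 231 and 196, RLE size factors 10 higher, DESeq2 27 higher, hemoglobin genes left out 12 higher, and a comparator without Alox15 and Prg4 UMIs 25 lower. Where a library was left out, the lone library of its label was assumed to vary like the others. The p-values of those fits are therefore not given, and nothing is read from their counts of calls above. Genes without a call changed direction in the members. Fxr1 was at -0.032 with a threshold of 10, Apoe ranged from -0.38 to 0.55 and Slpi from -0.88 to 0.55 with libraries left out, Slpi was at 0.013 with doublets removed, and H2-Aa ranged from -0.67 to 1.51 and was at -0.16 without members that held UMIs of other cell types. The cause of these changes was not tested. The difference in share among macrophages ranged from -7.75 to -3.29 percentage points with a library left out and was negative under every alternative. With 2 pooled libraries a group, and 59 and 60 B cells under the siFXR1-LNA label, depth limits the levels of rare transcripts.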
